A study of Mus musculus with 8 samples.

Results

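The mitochondrial ribosomal protein genes of the mouse were followed in melanoma tumours from mice on 2 diets. They were taken as every protein-coding Ensembl gene whose symbol is Mrpl or Mrps with a number, which gave 78 of the 34745 genes listed: 49 Mrpl genes and 29 Mrps genes. Mitochondria keep their own ribosome, built from RNAs encoded in mitochondrial DNA and from proteins encoded in the nucleus, made in the cytosol and imported. It translates the few mRNAs of the mitochondrial genome, all of which encode core subunits of the respiratory chain and ATP synthase. The nuclear genes for its proteins therefore have to be expressed alongside a second, mitochondrial set of transcripts.

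B16F10 cells, a line from a spontaneous melanoma of the C57BL/6 mouse, were cultured and then injected subcutaneously into C57BL/6J animals. These ate a normal diet (ND) or a high cholesterol diet (HCD), and RNA-seq libraries were made from the tumours, 4 per diet. The labels state no genetic alteration, age or sex, and all 8 tumours came from the same cell line. They do not say that each library came from a separate mouse, so p-values measure the spread between these libraries, which may be technical in part. The libraries are called ND 1 to 4 and HCD 1 to 4 by the numbers in their labels.

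Library totals lay between 14599222 and 17722093 counts. ND 2, ND 3 and ND 4 stood apart from the other 5 libraries: they had counts on 439 to 467 olfactory and vomeronasal receptor genes, against 8 to 13 in each of the others. The melanocyte genes that mark the injected cells were abundant, at 25904.2 to 30113.2 CPM (counts scaled to a common library total) in sum over 8 markers. The 10 macrophage markers summed to between 322.2 and 556.0 CPM in ND and between 503.9 and 657.5 CPM in HCD, and the 7 endothelial markers to between 84.6 and 105.6 and between 113.0 and 120.7 CPM. The 10 skeletal muscle markers reached 53.5 CPM in ND 1 and 88.7 CPM in ND 2 and lay between 4.24 and 15.5 CPM elsewhere, with 5 of them at 0 in at least 1 library. The 8 fibroblast markers spanned 56.5 to 286.6 CPM over both diets, with 2 of them at 0 in at least 1 library. The 10 proliferation markers summed to between 1786.6 and 1968.7 CPM in ND and between 1920.1 and 2213.6 CPM in HCD. In such mixed tissue, fewer cells of a type and less RNA per cell cannot be told apart, and the part of these markers in the results was not tested.

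Every one of the 78 genes was expressed in every tumour. The lowest count of any of them in any library was 57, the median was 531.5, and all 78 passed the filter on low counts. Levels were compared between genes per length, on the authors' FPKM (counts scaled by gene length and library total). They were compared again as CPM per kilobase of the gene's principal GENCODE transcript. This was done because the gene lengths behind the FPKM exceeded the gene's annotated exon bases for 60 of the 78, and the whole gene for 9. The median Mrpl gene stood at 11.7 FPKM and the median Mrps gene at 8.92 FPKM; per kilobase of the principal transcript, the medians were 24.1 and 21.7 CPM. Between 10 and 100 FPKM lay 44 genes, 33 were below 10 FPKM and 1 was above 100 FPKM.

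That 1 gene was Mrpl12, which encodes the protein of the flexible stalk that recruits translation factors and which is also known to bind the mitochondrial RNA polymerase. Its level was 111.3 ± 10.9 FPKM (SD, n = 8), and it ranked first on both scales. Second by FPKM was Mrpl42, a protein with no bacterial counterpart, at 86.8 ± 23.1 FPKM. Its range of 58.8 to 121.6 FPKM overlapped that of Mrpl12, which was 101.0 to 129.8. Mrpl4, whose protein lines the tunnel through which the new chain leaves, followed at 40.7 ± 2.96 FPKM. The highest small-subunit genes were Mrps7, a primary binder of the ribosomal RNA, at 35.6 ± 2.82 FPKM, Mrps16 at 32.1 ± 3.65 FPKM and Mrps6 at 30.8 ± 2.01 FPKM, whose ranges overlapped.

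At the other end, Mrps17 stood at 1.40 ± 0.157 FPKM, Mrpl33 at 1.46 ± 0.120, Mrpl47 at 1.56 ± 0.302 and Mrpl1 at 1.62 ± 0.330. Mrpl1 encodes the mobile arm at the tRNA exit side, and the ranges of these 4 genes overlapped. Mrps36 (1.95 ± 0.471 FPKM) and Mrps10 (2.49 ± 0.365 FPKM) came next among the small-subunit names. The spread from lowest to highest was 79.4-fold by FPKM and 67.1-fold by CPM per kilobase, although the assembled ribosome holds a single copy of most of these proteins.

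The order of the genes depended on the length used, with a rank correlation between both scales of 0.563 over the 78 genes, which are not independent replicates. Mrps16 ranked 8 by FPKM and 72 by CPM per kilobase, since its FPKM rests on a length of 566 bases and its principal transcript has 2572 bases. Mrpl33 ranked 77 by FPKM and 24 by CPM per kilobase, with lengths of 10219 and 478 bases. Mrpl20, a large-subunit protein of bacterial descent, ranked 13 and 2. Mrpl12, Mrpl42, Mrpl1, Mrpl47 and Mrps17 kept their places near the top or the bottom on both scales. Within one scale the order hardly varied between tumours: the rank correlation of the 78 FPKM values between any pair of libraries lay between 0.963 and 0.988.

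**Figure D1:**
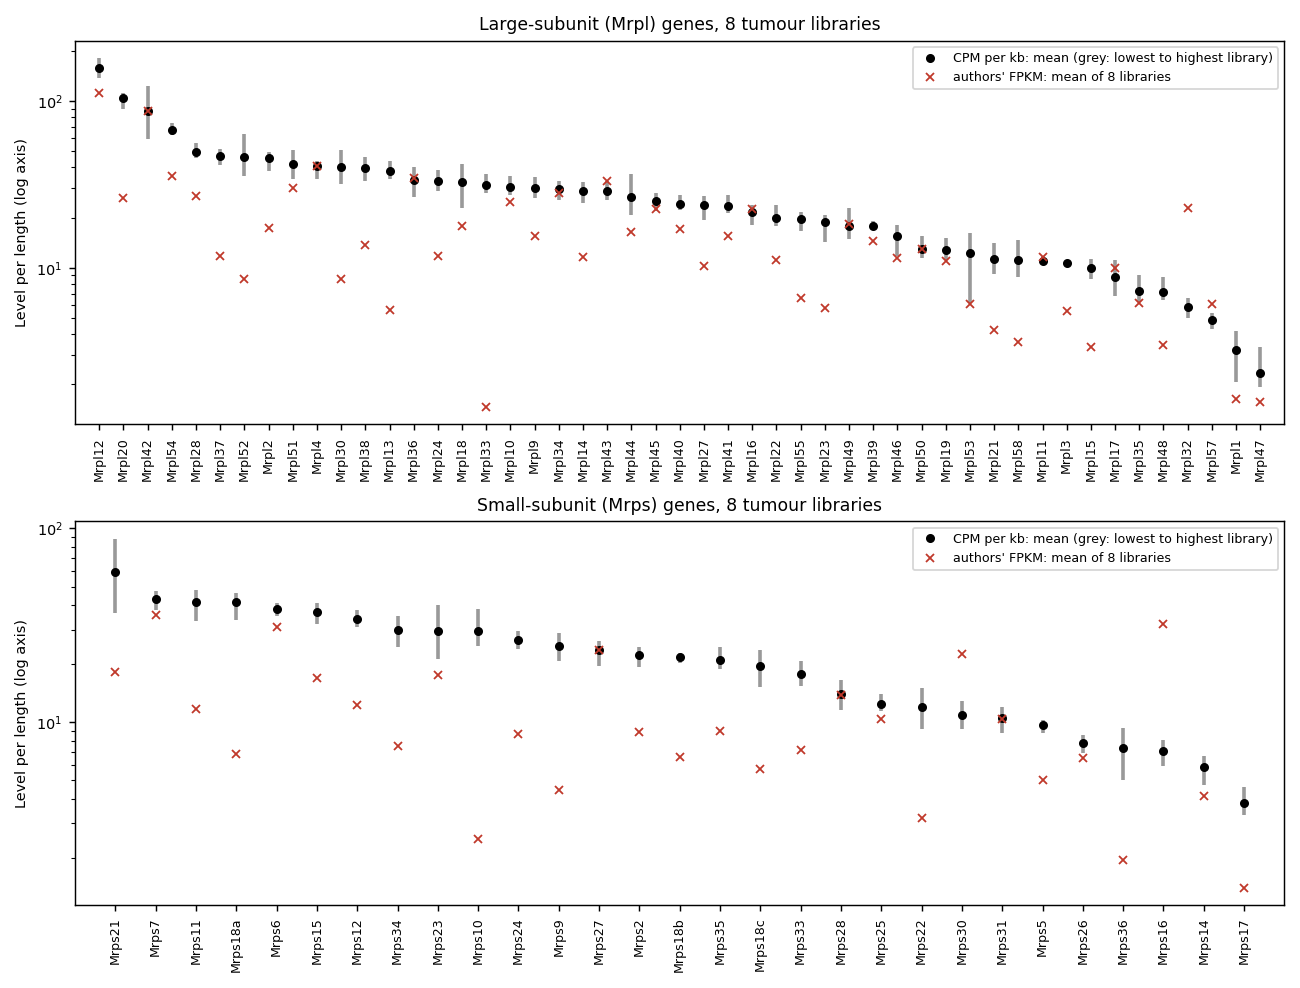
Level of each gene per length on a log axis, large-subunit names above and small-subunit names below, ordered by mean CPM per kilobase of the principal transcript. Black points are means over 8 libraries with grey lines from the lowest to the highest library, and red crosses are mean FPKM; Mrpl12 is highest on both scales, and Mrpl33 and Mrps10 show the widest gaps between the scales.

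The genes were also grouped by class of protein. Proteins with relatives in all ribosomes (27 genes) had a median of 26.6 CPM per kilobase. The medians were 23.8 for proteins shared with bacteria only (19 genes) and 21.7 for those classed as mitochondrial (31 genes). By FPKM the medians of these classes were 8.92, 15.4 and 11.7, so their order depended on the length used. The mitochondrial class includes Mrps18a and Mrps18b, which are relatives of a bacterial protein. By structure, Mrps30 and Mrps18a sit in the large subunit in spite of their names. Mrps36 is a component of the oxoglutarate dehydrogenase complex of the citric acid cycle rather than a core ribosomal protein, and it is kept here because its symbol fits.

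The 3 relatives of bacterial protein S18 have separate places in the ribosome. Mrps18c takes the bacterial position, Mrps18b sits elsewhere on the small subunit, and Mrps18a on the large one. Per kilobase of the principal transcript they stood at 41.6 CPM for Mrps18a, 21.7 CPM for Mrps18b and 19.4 CPM for Mrps18c. By FPKM they stood at 6.83, 6.64 and 5.72, so the gap between them depended on the length used. Mrps18b was among the steadiest of all 78 genes, with 23.1 ± 0.834 CPM in ND and 23.7 ± 0.918 CPM in HCD (SD, n = 4 each). Mrps18a gave 36.8 ± 4.78 and 36.7 ± 3.66 CPM, and Mrps18c 13.1 ± 1.76 and 11.6 ± 2.33 CPM, and in each of the 3 the diet groups overlapped.

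Promoter windows from RefSeq (GRCm38.p6, 250 bases before to 50 after the transcript start) matched 69 of the 78 genes. Mrpl13, Mrpl15, Mrpl19, Mrpl38, Mrpl4, Mrpl54, Mrps28, Mrps34 and Mrps35 had none. Each window was searched on both strands for 3 motifs of factors known for nuclear genes of mitochondria: GCGCA, any base and then GCGC for nuclear respiratory factor 1 (NRF1), CCGGAAG for the ETS family that includes GABPA (nuclear respiratory factor 2), and AANATGGCG for YY1. The motifs do not contain one another. The following stretches upstream of 5 starts show 4 genes that hold a motif and 1 that holds none, with motif matches in capitals and all other bases in lower case, written 5′ to 3′ on the gene's strand. CTTCCGG is the ETS motif read on the opposite strand. Mrpl12 is shown as the most abundant gene, Mrpl45 as the one with 3 NRF1 matches, Mrps27 for the start region it shares with a neighbour, and Mrpl52 and Mrps36 for the diet comparison that follows.
Mrpl12, chr11:120484512-120484612, plus strand: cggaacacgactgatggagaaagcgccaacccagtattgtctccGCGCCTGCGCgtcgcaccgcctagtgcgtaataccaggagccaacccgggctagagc
Mrpl45, chr11:97315591-97315715, plus strand: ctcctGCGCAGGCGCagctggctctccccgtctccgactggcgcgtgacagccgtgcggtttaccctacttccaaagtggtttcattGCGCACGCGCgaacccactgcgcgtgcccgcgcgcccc
Mrpl52, chr14:54426809-54426908, plus strand: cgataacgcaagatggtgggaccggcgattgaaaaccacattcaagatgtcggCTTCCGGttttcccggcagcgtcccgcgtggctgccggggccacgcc
Mrps27, chr13:99344706-99344785, plus strand: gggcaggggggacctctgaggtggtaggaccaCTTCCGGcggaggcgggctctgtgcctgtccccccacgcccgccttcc
Mrps36, chr13:100744660-100744759, minus strand: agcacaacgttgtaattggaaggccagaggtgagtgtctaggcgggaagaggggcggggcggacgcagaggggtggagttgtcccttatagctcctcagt

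The stretch of Mrpl12 ends 25 bases before its RefSeq start and holds 1 NRF1 match, and that of Mrpl45 ends at its start and holds 2 of its 3. In Mrps27 the 80 bases shown are all that separates its start from that of Ptcd2, which is read the other way, and the ETS match lies between both starts. Mrps36 had no match anywhere in its window. Of the 69 genes with a window, 42 (60.9%) held at least 1 of the motifs, against 33.0% of the 10008 tested genes with a window and 15.9% of all 27025 genes with one. The ETS motif was in 26 genes (37.7%, against 20.3% of tested genes and 9.93% of all), the NRF1 motif in 13 (18.8%, against 11.5% and 5.19%) and the YY1 motif in 11 (15.9%, against 6.01% and 2.76%). The median GC content of the windows was 58.0% for these genes and 61.0% for the tested genes.

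The motifs also lay at different places. Of 11 YY1 matches, 9 were at or after the transcript start, as in Mrpl42, Mrpl35 and Mrps30. Of 31 ETS matches, 20 were upstream, and so were 11 of 16 NRF1 matches, including the 1 in Mrpl44, whose first base was at -35. Mrpl27, Mrpl58, Mrps18a and Mrps27 held both an ETS and a YY1 match, and 8 genes in all held motifs of 2 kinds. A match describes these letters and is no evidence of binding.

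Many of the genes lie back to back with another gene. A protein-coding gene on the other strand started within 1000 bases of the start and pointed away in 18 of 78 (23.1%), against 6.80% of 21633 listed protein-coding genes. Only 12278 protein-coding genes passed the filter on low counts, and the share among those was not computed. The starts of these pairs were 26 to 935 bases apart (median 82), and in 17 of 18 they were at most 250 bases apart. Partners included Psma2, a proteasome subunit, beside Mrpl32 (75 bases), Fau, which encodes a cytosolic ribosomal protein, beside Mrpl49 (59 bases), and Ncapd2, a condensin subunit, beside Mrpl51 (100 bases). Mrps12, which sits at the decoding site, faces Sars2, the mitochondrial seryl-tRNA synthetase (172 bases). Another 15 genes overlapped the 5′ end of a protein-coding gene on the other strand, among them Mrpl46 and Mrps11, which overlap each other, and Mrpl43, which overlaps Twnk, the mitochondrial DNA helicase. The share of such overlaps over all genes was not computed.

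**Figure D2:**
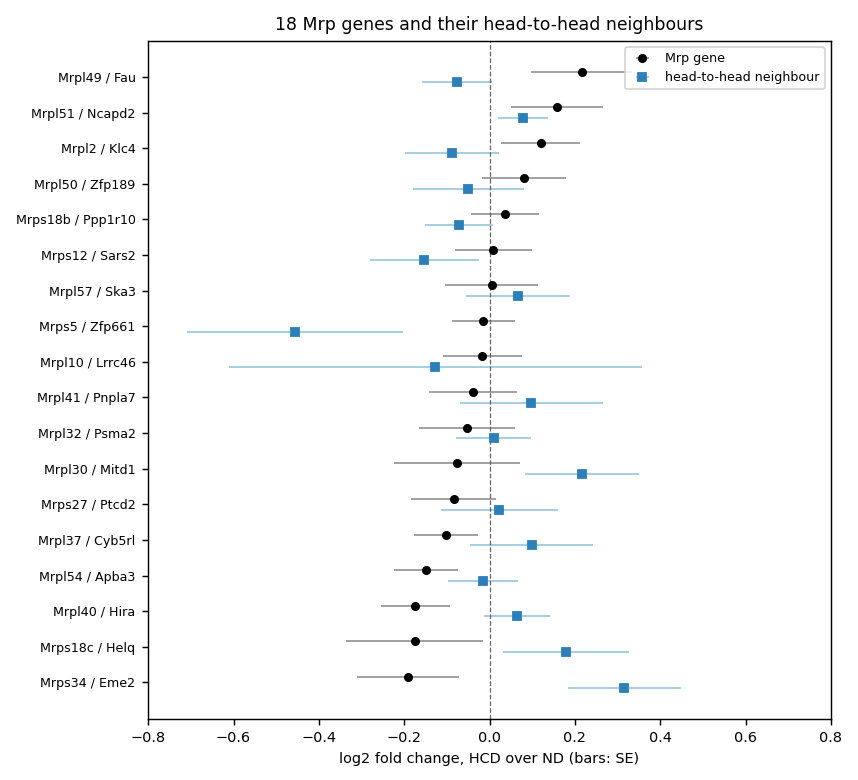
Log2 fold change, HCD over ND, with its SE, for 18 Mrp genes (black circles) and the gene that starts head to head with each (blue squares). In 5 of the 18 pairs both genes have the same sign; Mrpl51 and Ncapd2 are 1 of these, and Mrpl49 and Fau have opposite signs.

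The diet differences of both partners were set side by side. In 5 of 18 pairs the log2 fold changes of both genes had the same sign, and the correlation of log2 CPM over the 8 libraries had a median of 0.06 and ran from -0.61 (Mrpl49 with Fau) to 0.71 (Mrpl51 with Ncapd2). Those correlations describe 8 libraries that differ in diet and are given with no test. Exon bases were shared with another gene of at least 1000 counts in sum over the libraries by 20 of the 78, and the counts of these genes are uncertain, since no source used here says whether the counting took strand into account.

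The comparison of HCD with ND asked whether tumours on the 2 diets differ in these transcripts. None of the 78 genes passed the test at an adjusted p of 0.05 (edgeR's quasi-likelihood test with Benjamini-Hochberg adjustment over 13186 genes), where 0.182% of all tested genes passed. At an unadjusted p below 0.05 stood 10 genes, against 14.7% of all tested genes. Of these 10, 3 were higher in HCD (7.21% of all tested genes) and 7 were lower (7.49%). With limma-voom, 0 of the 78 passed after adjustment (0.144% of all), with robust dispersion 0 (0.379%), and with DESeq2 1 did, Mrpl44 (3.31%). The groups did not overlap for 8 genes, as for 9.67% of all tested genes. Of these 8, 3 were higher in HCD (4.94% of all) and 5 lower (4.73%). Log2 fold changes ran from -0.50 to 0.58, 67 of the 78 were within 0.25 of 0, and the median SE was 0.11. In simulated data of this design, the test called 1 of 50 genes planted at 1.2-fold, 17 of 49 at 1.5-fold and 42 of 50 at 2-fold. Most differences planted at 1.2-fold and 1.5-fold were thus missed at this depth and number of libraries. The planted genes were drawn from all tested genes, whose median SE was 0.13, so the shares for the 78 genes may differ.

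By direction, 46 of the 78 genes (59.0%) were lower in HCD, against 48.9% of all tested genes. The median log2 fold change was -0.04 for the 49 Mrpl genes and -0.02 for the 29 Mrps genes, beside 0.00 for all tested genes. By class, 14 of 27 genes with relatives in all ribosomes, 12 of 19 shared with bacteria and 20 of 31 classed as mitochondrial were lower. The class medians of the log2 fold change were -0.01, -0.05 and -0.05. Among the 20 genes that share exon bases with an expressed gene 9 were lower, and among the other 58 genes 37 were lower, with medians of 0.02 and -0.04.

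**Figure D3:**
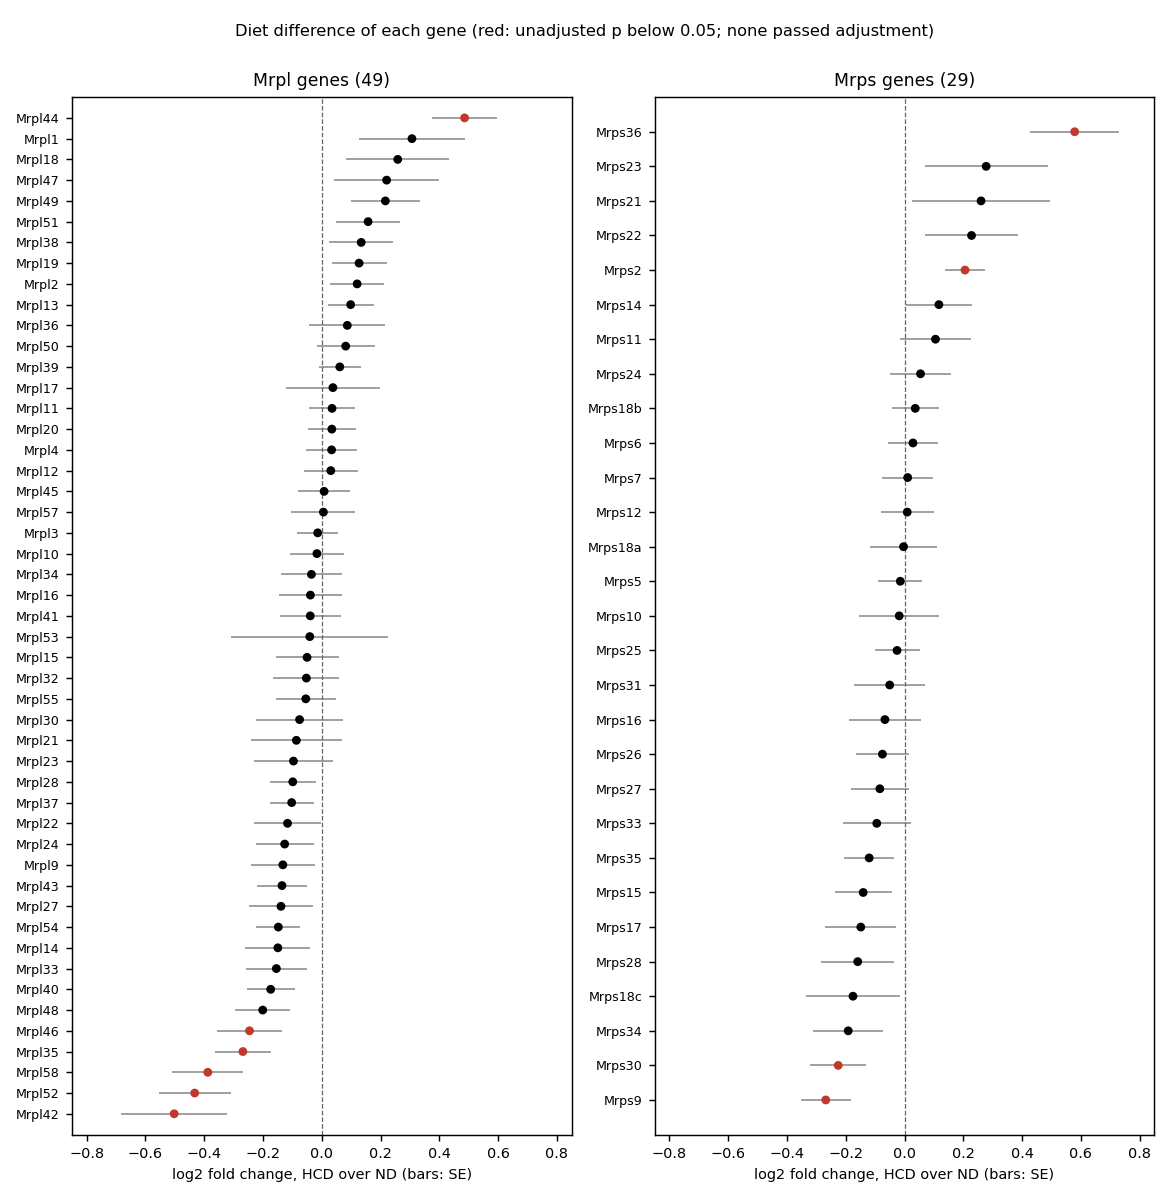
Log2 fold change, HCD over ND, with its SE, for the 49 Mrpl genes (left) and the 29 Mrps genes (right), in order of size. Red points are the 10 genes with an unadjusted p below 0.05, and none passed after adjustment; most values lie within 0.25 of 0.

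The gene with the smallest p was Mrpl44, a large-subunit protein with a fold like that of RNase III (chromosome 1, 79776018 to 79781445, GRCm38). Its levels in ND 1 to 4 were 29.6, 34.1, 31.4 and 30.6 CPM, and in HCD 1 to 4 they were 51.9, 37.7, 39.2 and 47.0 CPM. All 4 HCD libraries were above all 4 ND libraries, with HCD 1 highest. The log2 fold change was 0.49 ± 0.11 (SE), with an edgeR adjusted p of 0.102 and a DESeq2 adjusted p of 0.00932. Its 5′ exon overlaps that of Wdfy1 on the other strand over 126 bases; Wdfy1 had 157.3 ± 7.13 CPM in ND and 149.8 ± 12.0 in HCD, in the other direction.

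Mrps36, the oxoglutarate dehydrogenase component, had the largest difference. It gave 4.35, 4.10, 3.52 and 4.51 CPM in ND and 6.54, 6.30, 5.94 and 5.84 CPM in HCD. The groups did not overlap, and the log2 fold change was 0.58 ± 0.15 (edgeR adjusted p = 0.128). Mrps2, a protein of the small subunit's solvent side, was the third gene with higher levels, at 44.5, 41.5, 40.3 and 44.6 CPM in ND and 49.6, 50.5, 47.5 and 49.3 CPM in HCD. Here too every HCD library was above every ND library, by a log2 fold change of 0.21 ± 0.07 (edgeR adjusted p = 0.219).

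Of the genes with lower levels, Mrpl52, found only in mitochondrial ribosomes, gave 26.5, 21.5, 19.0 and 22.3 CPM in ND and 14.9, 15.6, 18.7 and 17.0 CPM in HCD. The groups did not overlap, though ND 3 and HCD 3 nearly met, and the log2 fold change was -0.43 ± 0.12 (edgeR adjusted p = 0.155). Mrpl58, a peptidyl-tRNA hydrolase built into the large subunit that frees stalled ribosomes, gave 27.1, 30.4, 36.9 and 37.9 CPM in ND and 22.7, 25.7, 27.2 and 25.5 CPM in HCD. ND 1 lay just under HCD 3, so the groups overlapped, with a log2 fold change of -0.39 ± 0.12 (edgeR adjusted p = 0.183).

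Mrpl42, the second most abundant gene by FPKM, spread widely within ND, at 74.7, 82.6, 44.0 and 70.4 CPM, and gave 54.1, 45.3, 53.0 and 39.4 CPM in HCD. ND 3 lay among the HCD libraries and the other 3 ND libraries above all of them. The log2 fold change of -0.50 ± 0.18 was the lowest of the 78, with an edgeR adjusted p of 0.242. Leaving out single libraries moved it between -0.66 and -0.39.

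Mrps9, whose bacterial relative reaches the tRNA in the peptidyl site, gave 37.5, 40.3, 34.6 and 40.9 CPM in ND and 29.3, 32.4, 32.5 and 33.2 CPM in HCD. All HCD libraries were below all ND libraries, by a log2 fold change of -0.27 ± 0.08 (edgeR adjusted p = 0.189). Mrpl35, a large-subunit protein shared with bacteria, gave 30.1, 27.0, 27.3 and 33.9 CPM in ND and 23.2, 25.4, 23.9 and 25.6 CPM in HCD, again without overlap and with a log2 fold change of -0.27 ± 0.10 (edgeR adjusted p = 0.243). Mrps30, which sits in the large subunit, gave 36.7, 42.4, 40.2 and 36.3 CPM in ND and 33.3, 31.1, 30.7 and 38.0 CPM in HCD. HCD 4 was above 2 of the ND libraries, and the log2 fold change was -0.23 ± 0.09 (edgeR adjusted p = 0.309).

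Mrpl46 gave 18.7, 20.4, 17.7 and 19.8 CPM in ND and 13.4, 17.2, 17.2 and 16.8 CPM in HCD, with a log2 fold change of -0.25 ± 0.11 (edgeR adjusted p = 0.339). HCD 1 was far below the other 3, which came close to ND 3. Mrps11, which shares its 5′ end with Mrpl46 over 173 bases, had 42.6 ± 6.09 CPM in ND and 45.8 ± 5.30 in HCD, in the other direction. Mrpl40 also had groups that did not overlap, at 32.7 ± 2.37 CPM in ND and 29.0 ± 0.885 in HCD, with an unadjusted edgeR p of 0.0579. All 10 genes at an unadjusted p below 0.05 kept their direction under each alternative that was run. Not all of them stayed below that p: as single libraries were left out, 7 to 9 of the 10 did. Another alternative added a term for ND 2, ND 3 and ND 4, the libraries with receptor genes. No HCD library carried that term, so the diet difference in that fit rested on ND 1 alone against the HCD libraries. There the log2 fold change moved by over 1.5 times for Mrpl58, to -0.10, for Mrpl52, to -0.68, for Mrps30, to -0.14, and for Mrpl40, to -0.09.

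**Figure D4:**
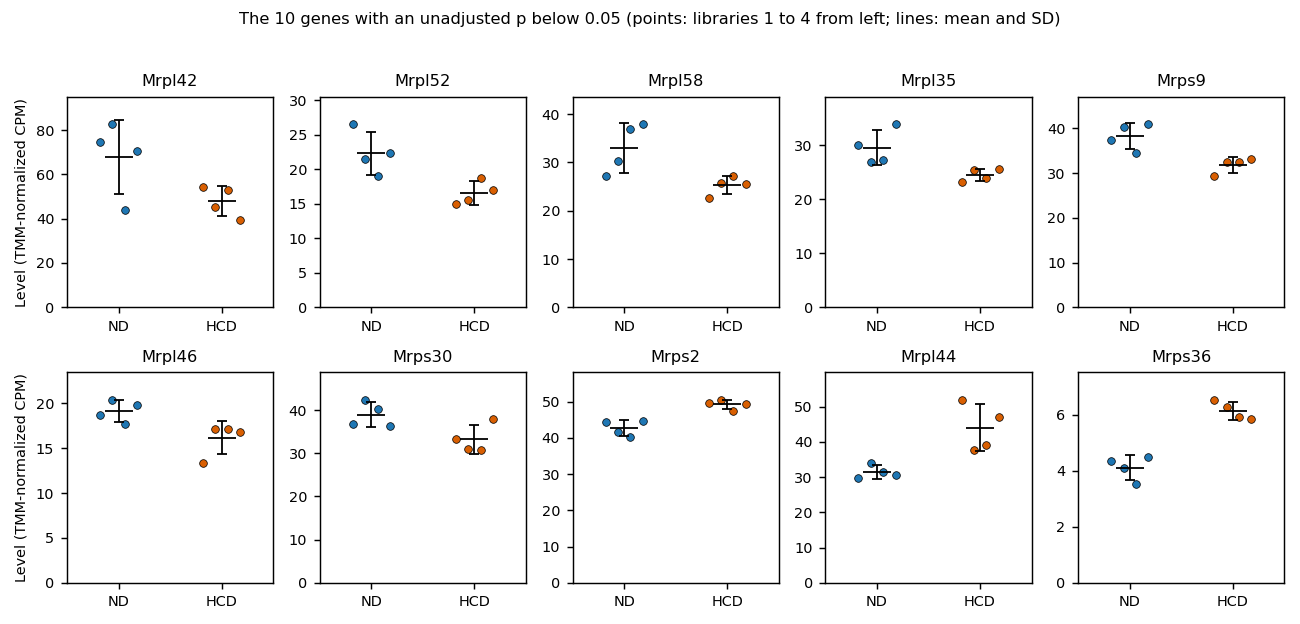
TMM-normalized CPM in each library, with mean and SD of 4, for the 10 genes with an unadjusted p below 0.05, on axes that start at 0. All HCD points lie above all ND points for Mrpl44, Mrps36 and Mrps2 and below them for Mrpl52, Mrps9, Mrpl35 and Mrpl46, and the groups overlap for Mrpl58, Mrpl42 and Mrps30.

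Among the genes with the smallest p of their family, Mrpl48 had a log2 fold change of -0.20 ± 0.09, Mrps15 -0.14 ± 0.10, Mrps34 -0.19 ± 0.12, Mrps35 -0.12 ± 0.09 and Mrps22 0.23 ± 0.16. All had edgeR adjusted p-values of 0.363 or more, and their groups overlapped. With the term for ND 2, ND 3 and ND 4, and so against ND 1 alone, Mrps35 changed sign, to 0.08. Mrps22 then stood at 0.48, Mrps34 at -0.34 and Mrps15 at -0.22. Without single libraries, Mrps35 ran from -0.18 (without ND 1) to -0.06 (without ND 3) and Mrps22 from 0.15 (without HCD 4 or ND 1) to 0.35 (without HCD 3). Mrps34 was -0.29 without HCD 3, and Mrpl48 was -0.13 without ND 4. Mrpl12, of the stalk, gave 214.5, 208.9, 203.7 and 192.0 CPM in ND and 182.7, 226.6, 238.7 and 188.7 CPM in HCD, with the lowest and the highest libraries both in HCD and a log2 fold change of 0.03 ± 0.09. Mrpl11, at the stalk base, had a log2 fold change of 0.03 ± 0.08, Mrpl36, a small zinc-binding protein, 0.09 ± 0.13, and Mrps12, at the decoding site, 0.01 ± 0.09, so that each of these 4 differed by less than 1 SE. With the term, Mrpl12 stood at -0.04, Mrpl11 at -0.02, Mrpl36 at 0.27 and Mrps12 at 0.06. Mrpl47, near the tunnel exit, gave 7.30 ± 0.319 CPM in ND and 8.49 ± 2.11 in HCD, where HCD 4 was highest at 11.3 CPM. Its log2 fold change of 0.22 ± 0.18 was 0.05 without HCD 4 and 0.33 without HCD 2. It shares 616 exon bases with Ndufb5, a complex I subunit with a log2 fold change of -0.57 ± 0.12 (edgeR adjusted p = 0.0860).

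Within a diet, the genes varied less than the median tested gene. Their median SD of log2 CPM was 0.13 in ND and 0.13 in HCD, against 0.18 and 0.16 over all tested genes. The median level was 11.5 FPKM for these genes and 4.15 FPKM for all. Mrpl3, a core protein of the large subunit, varied least over the 8 libraries (SD 0.05), followed by Mrps18b (SD 0.05). Mrpl53 (SD 0.44), Mrps21 (SD 0.41) and Mrpl42 (SD 0.39) varied most, and 87.97% of the exon bases of Mrpl53 are shared with Gm42688 on the same strand.

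The genes showed little common movement from tumour to tumour. The correlation of log2 CPM between pairs of the genes over the 8 libraries had a median of 0.04, with the middle of the distribution from -0.28 to 0.36. With the mean of the other genes, the median correlation was 0.18, and 16 of the 78 were below 0. The 3 least like the rest were Mrpl39 (-0.72), Mrps36 (-0.64) and Mrps2 (-0.62); Mrps36 and Mrps2 are both genes with higher levels in HCD. Mrpl39, an inactive relative of threonyl-tRNA synthetase in the large subunit, had 40.1 ± 1.06 CPM in ND and 41.8 ± 2.09 in HCD. The points of these correlations share library depth and tumour makeup, and they are given as a description.

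In sum, the 78 genes made up 0.293%, 0.291%, 0.297% and 0.286% of the counts in ND 1 to 4 and 0.294%, 0.303%, 0.307% and 0.290% in HCD 1 to 4. The means were 0.292 ± 0.00457% and 0.298 ± 0.00785% (SD, n = 4 each), and the groups overlapped. After TMM normalization the direction was the opposite, with 2961.3 ± 56.2 CPM in ND against 2939.9 ± 82.5 for HCD, so the sign of this small difference depended on the scaling. The Mrpl genes summed to 1986.4 ± 20.8 CPM in ND and 1973.7 ± 56.9 in HCD, and the Mrps genes to 975.0 ± 38.5 and 966.2 ± 25.7. For each of these CPM sums the difference between the diets was smaller than the SD of either group, which was not so for the share of counts.

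The cytosolic ribosomal protein genes and the mRNAs that the mitoribosome translates were set beside these sums. Of the cytosolic ribosomal protein genes, 62 of 76 tested (81.6%) were lower in HCD, against 48.9% of all tested genes, with a median log2 fold change of -0.15. At an unadjusted p below 0.05, 25 were lower (7.49% of all), 19 were lower without overlap of the groups (4.73% of all), and 1 passed the test after adjustment, Rps15a (0.182% of all). They made up 2.10 ± 0.104% of counts in ND and 1.95 ± 0.0294% in HCD. The 13 mRNAs encoded in mitochondrial DNA, the templates of the mitoribosome, made up 14.0 ± 0.486% in ND and 12.2 ± 0.737% in HCD. Of the 13, 10 (76.9%) were lower in HCD. None of them passed edgeR's test, 5 were lower at an unadjusted p below 0.05 (7.49% of all tested genes were), and DESeq2 called mt-Nd1 and mt-Co1 (3.31% of all were called). mt-Co1, a core subunit of cytochrome c oxidase, had 56319.9 ± 950.8 CPM in ND and 46324.0 ± 2933.3 in HCD (log2 fold change -0.28 ± 0.06, edgeR adjusted p = 0.101). mt-Nd1, a subunit of complex I, had a log2 fold change of -0.38 ± 0.11 (edgeR adjusted p = 0.153). Whether these groups differ from the Mrp genes in their response to diet was not tested.

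**Figure D5:**
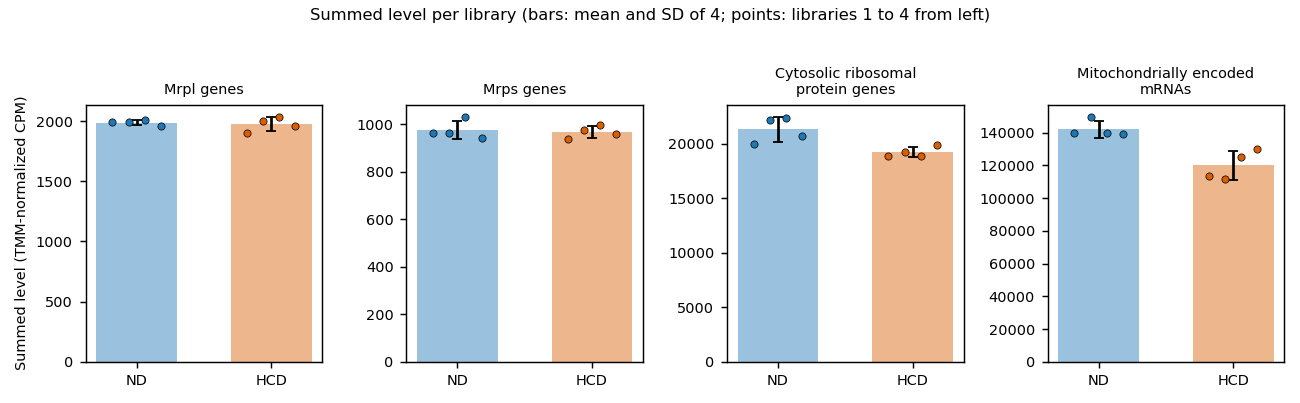
Summed TMM-normalized CPM per library for the Mrpl genes, the Mrps genes, the cytosolic ribosomal protein genes and the mitochondrially encoded mRNAs, with mean and SD of 4, on axes that start at 0. The Mrpl and Mrps sums overlap between diets. For the cytosolic ribosomal protein genes and for the mitochondrially encoded mRNAs, the 4 HCD libraries lie below the 4 ND libraries.

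The other genes of mitochondrial translation were read from lists, and none of their members passed edgeR's test. Of 5 ribosomal proteins that carry other symbols, 2 were higher and 3 lower in HCD. Ptcd3, a small-subunit protein that binds RNA, had 65.7 ± 3.73 CPM in ND and 76.5 ± 4.12 in HCD (log2 fold change 0.22 ± 0.07, edgeR adjusted p = 0.206). Aurkaip1, also of the small subunit, had 52.2 ± 6.66 and 42.7 ± 3.45 CPM (-0.29 ± 0.10, edgeR adjusted p = 0.235). With the term for ND 2, ND 3 and ND 4, and so against ND 1 alone, its log2 fold change was -0.19. Of 29 assembly factors, 19 were higher and 10 lower (34.5% lower, against 48.9% of all tested genes; median 0.05). Mtg2, a GTPase of large-subunit assembly, had 12.8 ± 1.40 and 17.3 ± 2.33 CPM, and Spg7, a subunit of the protease that matures a large-subunit protein, 59.0 ± 1.26 and 50.8 ± 2.33 CPM.

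Of 16 translation factors, 11 were higher and 5 lower (31.2% lower, against 48.9% of all tested genes; median 0.10). At an unadjusted p below 0.05, 4 were higher, against 7.21% of all tested genes. Taco1, an activator of mt-Co1 translation, gave 7.55, 7.17, 9.08 and 8.05 CPM in ND and 9.89, 10.3, 11.5 and 10.8 CPM in HCD. The groups did not overlap, with a log2 fold change of 0.41 ± 0.12 and an edgeR adjusted p of 0.170. Mtrf1l, a release factor, had 4.46 ± 0.642 and 6.40 ± 1.29 CPM (0.52 ± 0.19, edgeR adjusted p = 0.262). Of 10 genes for transcription and replication of mitochondrial DNA, 9 were higher and 1 lower (10.0% lower, against 48.9% of all tested genes). Their median was 0.14. At an unadjusted edgeR p below 0.05, 1 of them was higher, against 7.21% of all tested genes. Twnk had a log2 fold change of 0.24 ± 0.10, and Polrmt, the mitochondrial RNA polymerase, 0.28 ± 0.14. With the term for ND 2, ND 3 and ND 4, and so against ND 1 alone, these were 0.44 and 0.45.

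Among 10 regulators of nuclear genes for mitochondria, 6 were higher and 4 lower. Ppargc1a, the coactivator PGC-1alpha of mitochondrial gene expression, gave 58.4, 79.3, 59.5 and 55.1 CPM in ND and 81.1, 83.8, 81.0 and 86.2 CPM in HCD. All HCD libraries were above all ND libraries, with ND 2 close to them. Its log2 fold change was 0.40 ± 0.11 with an edgeR adjusted p of 0.147, and ran from 0.34 to 0.53 as single libraries were left out. Without ND 2 the edgeR adjusted p was 0.0468, and with DESeq2 it was 0.0402. Gabpb1, the partner subunit of GABPA, had 34.1 ± 3.66 and 26.2 ± 2.64 CPM (log2 fold change -0.38 ± 0.11, edgeR adjusted p = 0.148, DESeq2 adjusted p = 0.0481). In all other alternatives the adjusted p of both genes stayed above 0.05. The factors whose motifs were searched had log2 fold changes of -0.01 ± 0.09 for Nrf1, -0.11 ± 0.10 for Gabpa and 0.04 ± 0.09 for Yy1.

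Diet differences of the Mrp genes were also compared with and without each motif. The median log2 fold change was 0.01 for the 13 genes with an NRF1 match and -0.04 for the 56 without. It was -0.05 for the 26 with an ETS match and -0.02 for the 43 without, and -0.10 for the 11 with a YY1 match and -0.02 for the 58 without. The differences between these medians were not tested.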

How the data were processed

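Tumour RNA was sequenced in 8 libraries, grouped by the diet in their labels. Per the submitters' processing notes, CASAVA 1.8, TopHat2 2.0.9, HTSeq and edgeR were used, with the genome build mm10. The annotation release and the use of strand were not stated in those sources. As the file headers name them, the authors deposited whole-number counts per Ensembl gene and FPKM values; division of the deposited counts by the FPKM gave each gene's length.

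Genes were matched to GENCODE M21 (34344 of 34745). Counts were tested with edgeR 4.0.16 (R 4.3.3): TMM factors, filterByExpr (minimum count 10, minimum total 15), quasi-likelihood F-test on diet, Benjamini-Hochberg adjustment over 13186 genes, threshold 0.05. An SE is |log2 fold change| divided by √F. CPM are TMM-normalized, and log2 CPM use a prior count of 2. In simulated counts, 5 of 12830 unchanged genes were called. Alternatives included DESeq2 1.42.0 and limma-voom 3.58.1.

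The genes, lists and tests were chosen with earlier results of these data known. Named genes were the 8 smallest p-values in each of Mrpl and Mrps, the 3 highest and 3 lowest by FPKM in each, 10 fixed by name, 2 per pathway list, and the 3 least like the members' mean. Other genes were named after their values were seen.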

Additional observations from a re-analysis of the deposited data

Results flagged for a closer look

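In 98 groups of 4 libraries (the named genes and the sums over gene sets, in each diet), 5 held 1 library whose distance from the other 3 exceeded Dixon's 95% critical value. Chance gives this in about 1 in 20 groups. Among large-subunit genes, Mrpl40 was high in HCD 3 (30.3 CPM, with the others at 28.5). Mrpl46 was low in HCD 1 (13.4 CPM, with the others between 16.8 and 17.2). Mrpl1 was high in HCD 4 (14.8 CPM, with the others between 11.7 and 12.2). Of the small-subunit genes, Mrps6 was high in HCD 4 (35.1 CPM, with the others between 32.0 and 32.3). The summed mitochondrially encoded mRNAs were high in ND 2 (149616.6 CPM, with the others between 138933.2 and 139814.4).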

How the results depend on the processing

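Over 17 alternatives, 32 of the 37 named genes that were carried through kept their direction, and 5 did not. Mrps18a (-0.0034) was 0.0048 without the expression filter, 0.0007 with limma-voom and 0.0001 with a replicate block, and ran from -0.0903 to 0.0531 as single libraries were left out. Mrps12 (0.0091) was -0.0052 with gene length offsets and ran from -0.0295 to 0.0685 as single libraries were left out. Mrpl12 (0.0306) ran from -0.0416 to 0.0873 in the same way. With a term for the 3 ND libraries that hold counts on over 100 receptor genes, an alternative chosen after seeing the data, Mrpl12 was -0.0362, Mrps35 0.0819 (-0.1203 without the term) and Mrpl11 -0.0244, and 6 members were at an unadjusted p below 0.05.

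The count of all genes called was 24. It was 93 without the filter, 428 with DESeq2, 50 with robust dispersion and 11 with gene length offsets. The replicate block gave 0, and leaving out single libraries gave 0 to 12. The number of Mrp genes called was 1 with DESeq2 and 0 in every other alternative, and at an unadjusted p below 0.05 it ran from 8 to 11 as single libraries were left out. As single libraries were left out, the median of the Mrpl genes ran from -0.0572 to -0.0144 and that of the Mrps genes from -0.0365 to 0.0067. In the same fits, 42 to 48 genes were lower. The cause of these shifts was not tested.

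The labels do not say whether libraries of the same number were handled together. The correlations of their deviations were 0.025, -0.011, -0.068 and 0.107, and 1 of 8 libraries correlated best with its own number. With the replicate block, 0 Mrp genes were called.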
